A study of Mus musculus with 16 samples.

Results

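Of 40796 regions of open chromatin compared between 2 monocyte fractions of the neonatal mouse spleen, 1523 were annotated neither as promoter nor as intron nor as distal intergenic. They comprised 888 regions in exons, 553 in 3' UTRs, 32 in 5' UTRs and 50 just downstream of a gene. The rule that defines them reads the annotation and no measured value. Spleen monocytes of wild-type C57BL/6 mice aged 7 days had been sorted by their surface level of Nrp1 into an Nrp1 high and an Nrp1 low fraction. Nrp1, neuropilin-1, binds semaphorins and VEGF together with plexins and VEGF receptors. The labels give myeloid-derived suppressor cell as the cell type, with no allele or treatment. The 16 libraries were 5 ATAC-seq libraries of each fraction (50000 cells each) and 3 RNA-seq libraries of each fraction (80000 cells each). The study asks how Nrp1 high monocytes differ from Nrp1 low monocytes early in life.

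ATAC-seq uses a transposase that cuts DNA where nucleosomes leave it open, so the density of cut fragments marks accessible chromatin. Most strong accessible sites of a cell lie at the start of active genes, and enhancers lie in introns or between genes. An accessible site inside an exon or UTR far from the annotated start can be an enhancer that overlaps transcribed sequence, an alternative start or a site at the end of a gene. The annotation gives priority to promoters, set here at 3000 bases around a start, so every region described lay at least 3002 bases from the nearest annotated start.

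All regional values are from the authors' deposited table, which lists for each region the log2 fold with its p-value and FDR but no value per library. The depth of the ATAC libraries is therefore unknown, and the spread between them cannot be shown. A region is called when its FDR is under 0.05, and "higher" means a positive fold. The direction, Nrp1 high against Nrp1 low, rests on the name of the comparison. Beside that, the promoter regions of the genes whose RNA was lower in Nrp1 high cells did not lean down. Of 110 promoter regions at 81 of those 105 genes, 2 were called lower and 9 higher, and the median log2 fold was 0.02. Of all 19352 promoter regions, 787 were called lower and 344 higher, and the median was -0.06. The calls at those genes thus leaned the other way from promoter regions as a whole. No column of the table states the direction. Were it reversed, every "higher" and "lower" of a region would turn. Every statement of equal or opposite sign between a region and RNA would turn with it. RNA libraries held 23395363 to 35127433 estimated counts. None of the 10 monocyte markers was called in RNA, while 7 of 10 neutrophil markers were lower in Nrp1 high (summed level 6500 to 7463 CPM, counts scaled to library size, against 40547 to 69108 in Nrp1 low). Of 5 platelet markers 3 were lower (8.23 to 12.8 CPM against 48.1 to 60.4), and of 4 basophil and mast cell markers 1 was. The 4 macrophage markers had no call, and their summed levels did not overlap (196 to 241 CPM in Nrp1 high against 311 to 391). How many of all genes lack overlap was not counted, so nothing is read from a lack of overlap alone, here or below. None of the B cell, T cell, NK or erythroid markers was called. In bulk samples fewer cells of a type and less RNA per cell cannot be told apart. The 4 regions in marker genes (2 monocyte, 1 neutrophil, 1 basophil and mast cell) were not called.

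The regions were small and scattered. In 98.2% of them the width was 400 bases, and the widest measured 797 bases. Their distance to the nearest start ranged from 3002 to 328209 bases, with a median of 8114 and quartiles of 4962 and 14641. Of the 1523 regions, 1039 lay downstream and 484 upstream of that start. No exon region lay in a first exon, and 568 lay in internal exons, 304 in last exons and 16 in single-exon transcripts. In the RefSeq annotation of GRCm38.p6, 1249 overlapped a protein-coding gene, 140 another kind of gene and 134 none. The gene that holds a region was often not the gene of the nearest start: this was so for 287 of the 888 exon regions and for 243 of the UTR regions. At the 3000-base limit, the regions closest to a start were those in the 3' UTRs of Stimate (3002 bases, log2 fold -0.45, FDR 0.248) and Trmt12 (3004 bases, -0.25, FDR 0.347). The promoter regions just inside the limit were those of Tor1aip2 (2999 bases, -0.54, FDR 0.0652) and Gm39091 (2998 bases, -0.86, FDR 0.210).

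Few of the regions held a start that RefSeq lists and the deposited annotation did not count as a promoter. Of the 1523 regions, 9 overlapped the stretch from 250 bases before to 50 bases after a RefSeq start, and none of the 9 was called. In 5 of them the 30 bases before the start lay wholly inside the region. Those 5 stretches are printed because they are what the RefSeq tables hold of sequence inside these open regions. They are given 5' to 3' on the strand of the gene, from RefSeq on GRCm38.p6, with capitals for a GC box (GGGCGG or, on the other strand, CCGCCC) or a TATA box (TATAAA or TTTATA).
Ethe1, 5' UTR, chr7:24593878-24593907, plus strand: taaggctctggcgGGGCGGctgcagggctc
H2bc6, 5' UTR, chr13:23585971-23586000, minus strand: acagcagctcactttctttttcttcctaag
Gm29846, in the 5' UTR of Aldh3b1, chr19:3923820-3923849, plus strand: cgctcggaactcagctgacctcgtCCGCCC
Gm36304, in an exon of 2310034O05Rik, chr5:100217748-100217777, minus strand: gccccacctcctcaTTTATAtaatccacca
Gm33977, in an exon of Epb41l1, chr2:156494960-156494989, minus strand: ctcactgtaatccttatcgtccatatccag
The start of Ethe1, a mitochondrial sulfur dioxygenase, was preceded by a GC box, and that of Gm29846 by the same box on the other strand. A GC box was present in 9.80% of the same 30-base stretches before all 32851 RefSeq starts and a TATA box in 2.04%. A match of letters is a description and not a binding site. The log2 folds of the 5 regions were -0.62 for Ethe1 (FDR 0.0683), 0.13 for the histone gene H2bc6 (FDR 0.612), -0.56 for Gm29846 (FDR 0.248), -0.11 for Gm36304 (FDR 0.794) and 0.21 for Gm33977 (FDR 0.654).

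In the comparison of the fractions, 110 of the 1523 regions were called, 40 higher and 70 lower in Nrp1 high. That is 7.22% of them, against 7.55% of all regions in the authors' deposited table, of which 2.56% were called higher and 4.99% lower. The share is thus near the background. The median log2 fold was -0.14 (quartiles -0.40 and 0.14), against -0.09 over the whole table. By class, 60 exon regions were called (21 higher, 39 lower, 6.76%), 42 in 3' UTRs (16 higher, 26 lower, 7.59%), 5 of 32 in 5' UTRs (2 higher, 3 lower, 15.6%) and 3 of 50 downstream (1 higher, 2 lower). Internal exons held 34 called regions of 568 (13 higher, 21 lower) and last exons 25 of 304 (7 higher, 18 lower). For scale, 5.84% of promoter, 9.24% of intron and 9.25% of distal regions were called. These class shares are descriptions, and no difference between classes was tested.

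**Figure D1:**
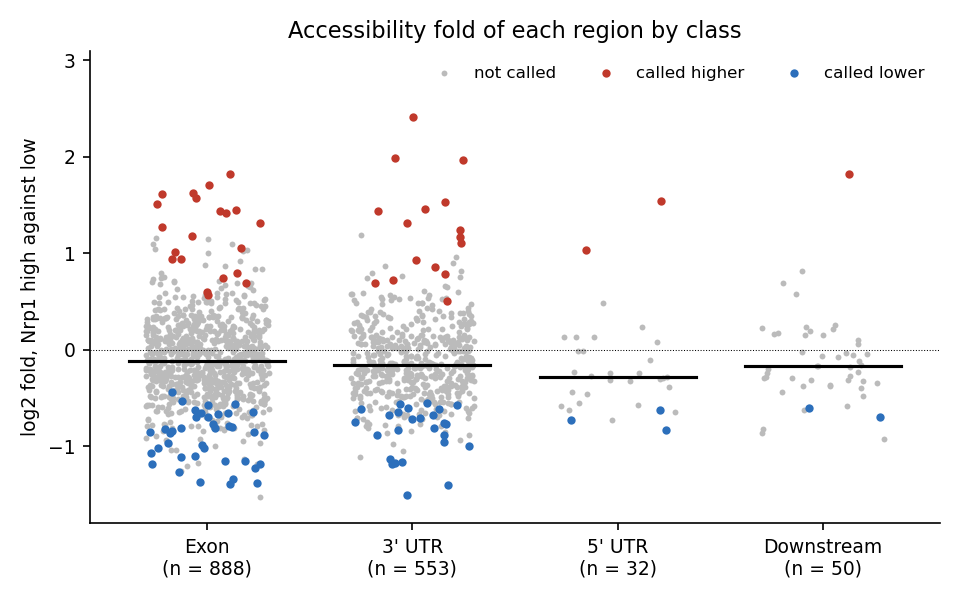
Log2 fold in accessibility, Nrp1 high against low, from the authors' deposited table (vertical axis), for each of the 1523 regions by class, with a horizontal bar at each class median (exon -0.11, 3' UTR -0.16, 5' UTR -0.29, downstream -0.17). Red points are the 40 regions called higher and blue points the 70 called lower, and the highest points reach farther from 0 (2.42) than the lowest (-1.53).

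**Figure D2:**
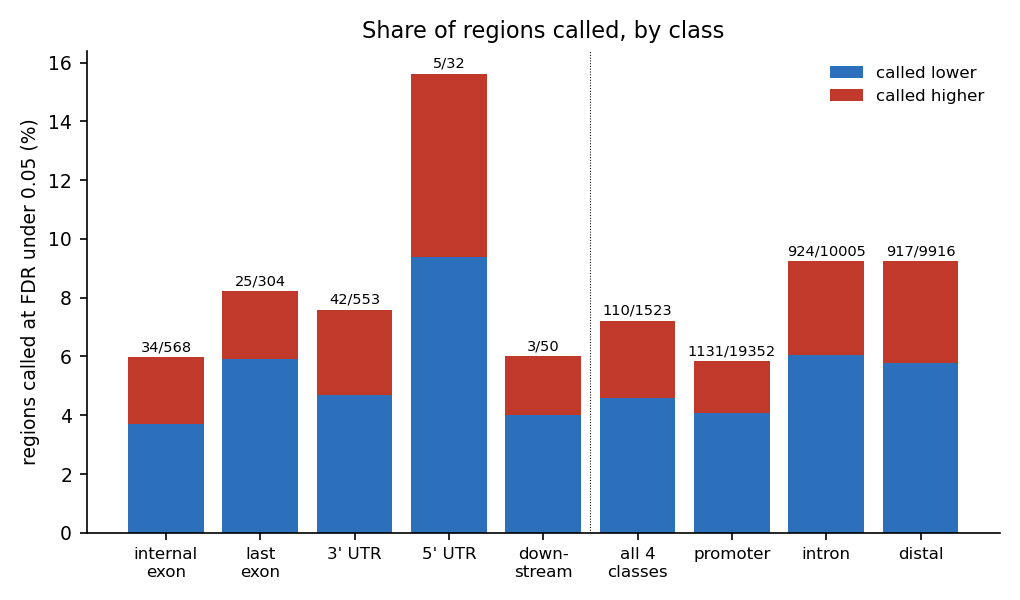
Percent of regions called at FDR under 0.05 (vertical axis, bars from 0) in each class, split into called lower (blue) and called higher (red), with the number called over the number of regions above each bar. The 4 classes together stood at 7.22%, between promoters at 5.84% and introns at 9.24%, and the tallest bar, 5' UTR, rests on 5 regions of 32.

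The regions called higher had larger folds than those called lower. In the authors' deposited table the median log2 fold was 1.26 for the 40 called higher and -0.82 for the 70 called lower, against 0.93 and -0.80 over the whole table. At an absolute log2 fold of at least 1, 27 regions were higher and 21 lower (56.3% higher, with 2.44% of the whole table called by this rule), so the excess of lower calls seen at FDR under 0.05 was not seen there. The same held at FDR under 0.01, with 24 higher and 18 lower (57.1% higher, 2.45% of the whole table called). In the whole table the corresponding shares were 48.0% and 42.8%, and 33.9% at FDR under 0.05, where the regions described here stood at 36.4%. Distal regions called higher and lower had medians of 1.08 and -0.84, with shares of 54.3% and 48.9%. For intron regions these were 1.01 and -0.85, with 46.6% and 45.5%, and for promoter regions 0.64 and -0.73, with 38.3% and 32.1%. Larger folds among the higher calls were thus shared with intron and distal regions.

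Among the exon regions called higher, those of Lrrc7, Xrcc5 and Ptprr had the largest folds in the authors' deposited table. The region in exon 8 of 25 of Lrrc7, a scaffold protein of the postsynaptic density, lay at chr3:158202479-158202878 and had a log2 fold of 1.82 and the lowest FDR of all 1523 regions (9.4e-06). Lrrc7 had no row in the RNA table. Exon 8 of 21 of Xrcc5, which encodes the Ku80 subunit that binds DNA ends for repair, held a region at chr1:72326289-72326688 with a log2 fold of 1.71 (FDR 0.00235). The RNA of Xrcc5 stood at 10.8, 8.52 and 6.54 CPM in Nrp1 low and at 2.86, 3.94 and 3.01 in Nrp1 high. The 2 groups of libraries did not overlap, the RNA difference had the opposite sign to that of the region (log2 -1.40 ± 0.35 SE), and it was not called (edgeR quasi-likelihood adjusted p = 0.203). Ptprr, a receptor-type tyrosine phosphatase that acts on MAP kinases, held a region in exon 4 of 14 at chr10:116162216-116162615 with a log2 fold of 1.63 (FDR 0.00652).

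Among the exon regions called lower, the largest falls were in Dnaic2, Ctdp1 and Gdf9. The region in exon 8 of 8 of Dnaic2, a subunit of the outer dynein arm of cilia, lay at chr11:114745091-114745490 and had a log2 fold of -1.39 (FDR 0.00749). That in exon 12 of 13 of Ctdp1, a phosphatase of the tail of RNA polymerase II, had a log2 fold of -1.38 (FDR 0.000513). Exon 3 of 3 of Gdf9, a growth factor of the oocyte, held a region at chr11:53436316-53436715 with a log2 fold of -1.37 (FDR 0.00484) in the authors' deposited table. Ctdp1 RNA stood at 24.2 ± 5.10 CPM in Nrp1 low against 29.4 ± 4.00 CPM in Nrp1 high (SD, n = 3), while Gdf9 RNA stood near 1 CPM (1.28 ± 0.27 against 0.49 ± 0.70). Exon numbers are those of the transcript that the annotation names for the region, which need not be the longest of its gene.

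In 3' UTRs the highest folds of the authors' deposited table were at Amer2, Mrpl15 and Zfp831. Amer2, a membrane-bound regulator of WNT signaling, held the largest positive fold of all the regions (chr14:60384298-60384697, log2 2.42, FDR 0.000421). Its RNA was close to absent in both fractions (Nrp1 low 0.80 ± 0.56 CPM, Nrp1 high 0.86 ± 0.65 CPM, SD, n = 3). Mrpl15 encodes a protein of the mitochondrial ribosome. Its region (chr1:4775052-4775451) had a log2 fold of 1.99 (FDR 0.000126), while its RNA stood at 83.8, 53.8 and 69.3 CPM in Nrp1 low against 48.8, 67.9 and 49.8 CPM in Nrp1 high, groups that overlap (log2 -0.31 ± 0.24 SE, edgeR adjusted p = 0.549). The region at Zfp831, a zinc-finger gene (chr2:174710098-174710497, log2 1.97, FDR 0.00355), had the start of Edn3 as its nearest (-50122 bases, upstream). Zfp831 RNA was low in all libraries, at 0, 1.13 and 0.71 CPM in Nrp1 low against 1.51, 1.93 and 1.75 CPM in Nrp1 high.

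The 3' UTR regions with the largest falls were those of Prss42, Bphl and Srsf9. Prss42, a serine protease of the testis, had a log2 fold of -1.50 (chr9:110803388-110803787, FDR 0.00885) in the authors' deposited table and no row in the RNA table. Bphl, a hydrolase, had a log2 fold of -1.41 (chr13:34064032-34064431, FDR 0.0127). Its RNA stood at 54.5, 30.1 and 34.1 CPM in Nrp1 low against 32.0, 30.5 and 31.2 CPM in Nrp1 high, so the groups overlap and the high mean of Nrp1 low comes from replicate 1. Srsf9, a splicing factor of the SR family, had a log2 fold of -1.18 (chr5:115333701-115334100, FDR 0.0101), and its RNA stood at 138.3 ± 14.2 CPM against 150.7 ± 29.3 CPM (SD, n = 3).

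All 5 called 5' UTR regions lay in genes with RNA in every library. Stx17, a SNARE protein of the fusion of autophagosomes with lysosomes, had a log2 fold of 1.54 (chr4:48131481-48131880, FDR 0.0126) in the authors' deposited table. The scavenger receptor Cd36, which takes up fatty acids and oxidized lipoproteins and belongs to the list of non-classical monocyte genes, had 1.04 (chr5:17829074-17829473, FDR 0.00278). The other 3 regions were lower. They were those of Cyrib, an inhibitor of RAC1-driven actin remodeling (chr15:64022413-64022812, -0.84, FDR 0.0220), the forkhead factor Foxn2 (chr17:88462596-88462995, -0.73, FDR 0.0330) and Relb, a subunit of the non-canonical NF-kB pathway (chr7:19619111-19619879, -0.62, FDR 0.0343).

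The RNA of these 5 genes was not called in either direction. Cyrib was the most abundant, at 591.4, 471.4 and 476.2 CPM in Nrp1 low against 357.9, 451.4 and 456.5 CPM in Nrp1 high, so every Nrp1 low library lay above every Nrp1 high library (log2 -0.28, edgeR adjusted p = 0.524). Foxn2 RNA went the other way from its region, with 26.6, 46.1 and 36.3 CPM in Nrp1 low against 69.8, 52.6 and 69.1 CPM in Nrp1 high (log2 0.81 ± 0.26 SE, edgeR adjusted p = 0.348), again without overlap. Relb RNA overlapped between the groups, at 12.1, 14.2 and 14.7 CPM against 10.5, 12.6 and 13.6 CPM (log2 -0.15, adjusted p = 0.773). Stx17 RNA was close to equal (21.7 ± 4.21 against 21.4 ± 3.63 CPM, SD, n = 3), and Cd36 RNA overlapped, at 9.95, 11.6 and 6.20 CPM against 7.23, 6.15 and 8.98 CPM (log2 -0.31, edgeR adjusted p = 0.661).

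Of the 3 called downstream regions, 1 lay near a named gene, Otor, a secreted protein of the cochlea (chr2:143081750-143082149, log2 -0.60, FDR 0.00805). The others had as their nearest starts those of the predicted genes Gm38006 (-19654 bases, upstream, log2 1.82) and Gm28415 (3591 bases, log2 -0.69), per the authors' deposited table.

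Regions in genes of signaling systems, of myeloid identity and of other groups were counted by list. Across 27 gene lists with 682 distinct genes, 69 of the 1523 regions lay in 62 genes, and of the 69 regions 1 was called higher (Cd36) and 2 lower (Flt3 and Relb). Beside the 7.55% called over the whole table, nothing is read from so small a count. Flt3, the receptor that drives dendritic cell and early progenitor growth, held a region in exon 10 of 10 of the named transcript (chr5:147362924-147363323) with a log2 fold of -0.57 (FDR 0.0274) in the authors' deposited table. Flt3 RNA was low, at 2.42, 3.26 and 3.33 CPM in Nrp1 low against 8.13, 4.77 and 6.58 CPM in Nrp1 high. The libraries did not overlap, the sign was opposite to that of the region, and the difference was not called (log2 1.11 ± 0.36 SE, edgeR adjusted p = 0.356).

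The semaphorin, plexin and VEGF list, the receptor system of Nrp1, held 7 regions in 6 genes, none of them called, with 3 above 0 and a median log2 fold of -0.17. Nrp1 itself held a region in exon 11 of 17 (chr8:128480949-128481348) whose log2 fold was 0.01 (FDR 0.985) in the authors' deposited table, and its promoter region stood at -0.15 (FDR 0.516). Of the 4 other listed regions within 50 kb of that exon region, 2 were called, 1 higher and 1 lower. The RNA of Nrp1, the gene the cells were sorted on, stood at 20.1, 57.8 and 41.5 CPM in Nrp1 low against 97.3, 89.8 and 111.4 CPM in Nrp1 high. Every Nrp1 high library lay above every Nrp1 low library, and the difference was not called over all genes (log2 1.32 ± 0.36 SE, edgeR adjusted p = 0.259). Flt1, a VEGF receptor, held an exon region at 1.14 (FDR 0.0632), and Plxnc1, a semaphorin receptor, held exon regions at -0.73 and -0.62 (FDR 0.188 and 0.381).

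Nos2, the inducible nitric oxide synthase, held a region in exon 25 of 27 (chr11:78956373-78956772, log2 -0.44, FDR 0.433) in the authors' deposited table. Nos2 had no row in the RNA table. Sema4a, Klf4, Mapk14 and Mtor held none of the 1523 regions. No region was called among the 5 of the p38 MAPK list (median log2 fold -0.28) or the 5 of the mTORC1 list (median -0.26). Of the 11 regions in the list of actin, RhoGEF and adhesion scaffold genes, 2 were above 0, the median was -0.40 and none was called, the nearest to the threshold being Arhgef2, a microtubule-bound RhoA activator (-0.72, FDR 0.0521). The chromatin and DNA methylation regulators had 8 regions, 5 of them above 0, with a median of 0.06 and no call.

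Lists that mark cell types were thinly covered. The 2 regions in classical monocyte genes were in the Fc receptor gene Fcgr1 (-0.68, FDR 0.117) and the chemokine receptor gene Ccr2 (-0.24, FDR 0.413). The 2 in neutrophil genes were in the granule collagenase gene Mmp8 (-0.15) and in Mmp25 (0.25), and MHC class II had 1, in H2-Eb2 (-0.68, FDR 0.0567), per the authors' deposited table. Of the 6 NF-kB regions, only that of Relb was called. No region lay in genes of the primary granule, platelet, T cell, NK, Kruppel-like factor, immediate early or Hox lists.

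Some genes held several regions. Of 1367 genes that held a region, 134 held 2 or more and 13 held 3 or more, and none held 2 called regions. With 7.55% of regions called in all, nothing is read from that 0. The predicted gene Gm4117 held 5, with folds between -0.31 and 0.31. Trps1, a GATA-type repressor, held 3 regions, of which 1 was called (exon 5 of 6, log2 1.42, FDR 0.00826), and Itsn1, an endocytic scaffold, also held 3 with 1 called (3' UTR, -0.72, FDR 0.0366). In Il16, a cytokine precursor, all 3 regions lay below 0 (-0.42 to -0.21) without a call.

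The neighborhood of the called regions was mixed in sign. Within 50 kb, 30 of the 110 called regions had another called region (27.3%, against 29.5% of called regions over the whole table). In 16 the neighbors had the same sign only and in 14 the opposite sign only (53.3% same). Among the called promoter, intron and distal regions with a called neighbor, 681 of 880 had neighbors of the same sign only, 164 of the opposite sign only and 35 of both (77.4% same only). Exon regions had 13 same and 8 opposite, and 3' UTR regions 2 same and 5 opposite. Among exon regions the split was 11 and 3 in internal exons (78.6% same) but 2 and 4 in last exons. The single-exon class had 0 and 1. The difference from the remaining classes was not tested, because neighboring regions are not replicates.

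The promoters of the genes that hold a called region showed the same mixture. Of the 110 called regions, 71 lay in a gene with a promoter region in the table, and 40 of the 71 had the sign of that promoter. In 15 genes the promoter region was called as well, with the same sign in 8 and the opposite sign in 7. By class, the sign was the same in 7 of 8 for internal exons, 0 of 2 for last exons and 1 of 5 for 3' UTRs. For called intron regions whose gene had a called promoter, the same sign was found in 71 of 96 (74.0%), and for distal regions in 26 of 42 (61.9%). Across all 1011 regions with a promoter region in their gene, folds of region and promoter were only weakly related (Pearson r = 0.059, Spearman rho = 0.054). That is a description across regions of the same libraries, and the corresponding values were 0.091 and 0.088 for introns.

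Several genes of known function were among those whose called region and called promoter had opposite signs in the authors' deposited table. In Atp6v0d2, a subunit of the proton pump of osteoclasts and macrophages, the region in exon 7 of 8 was lower (log2 -1.34, FDR 0.0237) and the promoter region, 34340 bases away, was higher (1.90, FDR 3.6e-05). Its RNA was 0 in all 3 Nrp1 low libraries and 0.26 ± 0.23 CPM in Nrp1 high (SD, n = 3), too low to compare. In Syk, the tyrosine kinase downstream of Fc and integrin receptors, the region in exon 6 of 6 of the named transcript (chr13:52624095-52624494) was higher (1.01, FDR 0.00764) and the promoter region lower (-0.81, FDR 0.00966). The RNA of Syk stood at 35.4, 188.7 and 138.8 CPM in Nrp1 low against 201.3, 155.8 and 215.3 CPM in Nrp1 high, with Nrp1 low replicate 1 far below the others and groups that overlap (log2 0.66 ± 0.51 SE, edgeR adjusted p = 0.550). Kif5c, a kinesin motor, had a higher 3' UTR region (0.93) and a lower promoter region (-0.91). Enpep, a peptidase that cleaves angiotensin, had a lower 3' UTR region (-0.61) and a higher promoter region (1.08).

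The other 3 genes of opposite sign were Gdf9 (-1.37 in the exon, 0.35 at the promoter), Spty2d1 (-0.998 and 0.30) and Atrnl1 (1.24 and -0.40). In 8 genes region and promoter shared a sign. Specc1l, a cytoskeletal linker, had -1.19 in exon 12 of 16 and -1.18 at the promoter, and Jmjd1c, a JmjC-domain histone demethylase family member, had -0.80 in exon 10 of 26 and -1.10 at the promoter, per the authors' deposited table. Ptprr had 1.63 in its exon and 0.70 at the promoter. Away from promoters, the exon 8 region of Magi1, a junction scaffold, was higher (1.44, FDR 0.00144) together with 2 intron regions of the same gene at 13584 and 29147 bases (1.75 and 1.28). The Cd36 5' UTR region (1.04) lay 25458 bases from an intron region of Cd36 that was lower (-0.44, FDR 0.0104). The 5' UTR region of Cyrib (-0.84) had a lower neighbor 1444 bases away (-0.73), annotated as a promoter of Gm25628.

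**Figure D3:**
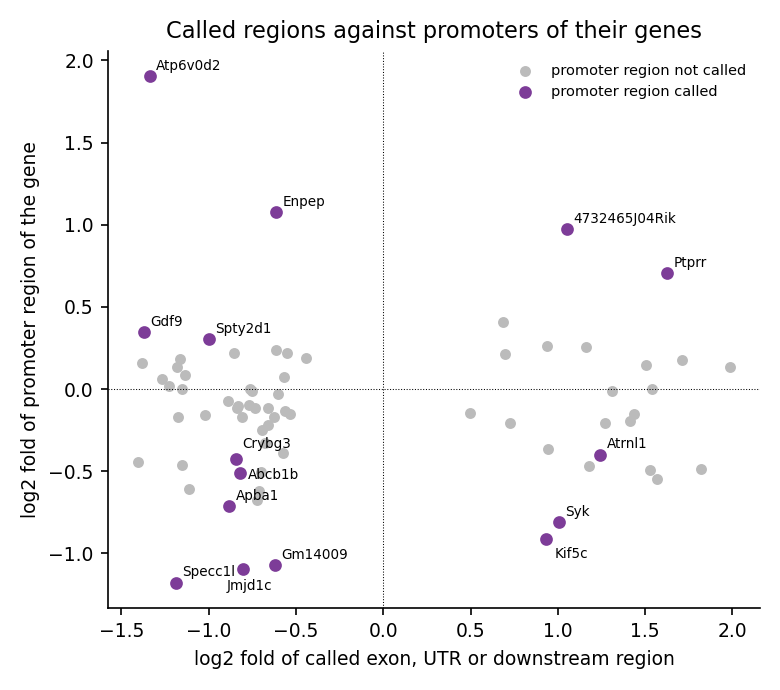
Log2 fold of each called exon, UTR or downstream region (horizontal axis) against the log2 fold of the promoter region of the same gene with the lowest FDR (vertical axis), for the 71 called regions whose gene has a promoter region. Purple named points are the 15 genes whose promoter region was also called, 8 in the quadrants of equal sign and 7 in those of opposite sign, with Atp6v0d2 farthest into the latter.

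RNA was compared for the genes that hold the regions. Of 1367 such genes, 1175 had a row in the RNA table and 907 passed the filter on low counts. By edgeR's quasi-likelihood test with Benjamini-Hochberg adjustment over 15541 genes, 2 of the 907 were lower in Nrp1 high (0.221%) and 0 were higher. The background was 0.676% of genes lower and 0.00643% higher. At an unadjusted p under 0.05, 67 were lower (7.39%) and 54 higher (5.95%), against 6.72% and 4.498% of all genes tested. DESeq2 called 18 lower and 6 higher of 980 with an adjusted p (1.84% and 0.612%), against 1.77% and 0.46% of all genes. The unadjusted and DESeq2 shares are near the background. The edgeR share of 0.221% was below its background and rests on 2 genes, so nothing is read from it. The labels speak of pooled RNA and do not say whether the libraries came from separate animals, so the p-values speak only of variation among these libraries, part or all of which may be technical.

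The 2 genes were Hdc and Rgcc, and neither of their regions was called. Hdc, histidine decarboxylase, makes histamine in basophils and mast cells. Its RNA stood at 46.1, 31.0 and 35.0 CPM in Nrp1 low against 7.23, 10.95 and 9.82 CPM in Nrp1 high, without overlap, and fell from 37.4 ± 7.81 to 9.33 ± 1.91 CPM (SD, n = 3, log2 -2.0 ± 0.28 SE, edgeR adjusted p = 0.0212). Its 3' UTR region (chr2:126593785-126594184) had a log2 fold of -0.41 (FDR 0.428) in the authors' deposited table, while its promoter region was called lower (-1.22, FDR 0.00785). Hdc is itself 1 of the 4 basophil and mast cell markers, which summed to 67.8 to 120.9 CPM in Nrp1 low against 29.4 to 55.5 CPM in Nrp1 high and of which Hdc alone was called, and 7 of 10 neutrophil markers were also lower. The part of those cells in the result was not tested. Rgcc, a regulator of the cell cycle induced by complement, had RNA of 178.3, 96.5 and 119.2 CPM in Nrp1 low against 29.7, 37.5 and 25.2 CPM in Nrp1 high, again without overlap (log2 -2.09 ± 0.28 SE, edgeR adjusted p = 0.0190). Its region in exon 4 of 5 (chr14:79290066-79290465) had a log2 fold of -0.31 (FDR 0.515). With any 1 of Nrp1 low replicate 3 or the 3 Nrp1 high replicates left out, neither gene was called. The lower calls over all genes then numbered 29, 28, 49 and 0, in that order, against 105 with every library.

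**Figure D4:**
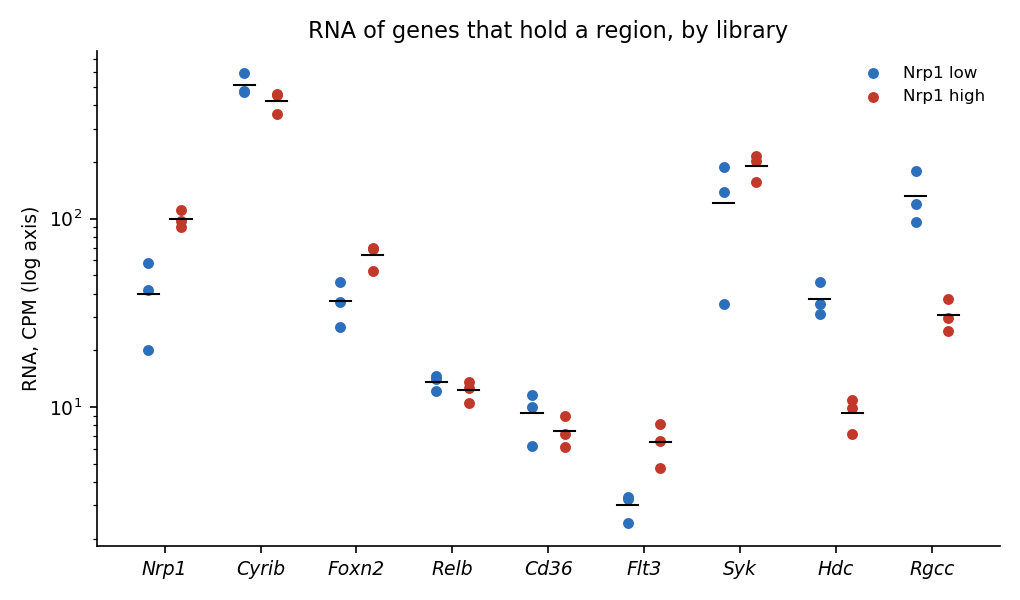
RNA level in CPM (vertical axis, log scale) of 9 genes that hold one of the regions, with a point per library (blue Nrp1 low, red Nrp1 high, 3 each) and a bar at the group mean. Hdc and Rgcc, the genes called lower, and Nrp1, not called, show groups that do not overlap, while Relb, Cd36 and Syk overlap.

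Called regions were set against the RNA of the genes that hold them. Of the 110 called regions, 69 lay in a gene tested in RNA. In 29 of the 69 (42.0%) the RNA difference, called or not, had the sign of the region. That share is a description, because regions of the same libraries are not replicates. Were the direction of the deposited fold reversed, the count would be 40 of 69 (58.0%). Over called promoter, intron and distal regions the shares were 40.5%, 39.2% and 37.8%, or 59.5%, 60.8% and 62.2% with the direction reversed. Of regions called higher, 15 of 24 had RNA of the same sign, and of those called lower, 14 of 45. Reversed, the lower 45 would become the higher ones with 31 of the same sign, and the 24 would become the lower ones with 9. Of all 907 tested genes that hold a region, called or not, 60.1% had an RNA difference above 0. Given that share, nothing is read from this split. By class the counts were 12 of 33 in exons, 15 of 31 in 3' UTRs and 2 of 5 in 5' UTRs. Across 1013 regions with a tested gene, the correlation of fold and RNA change was close to 0 (Pearson r = -0.018, Spearman rho = -0.007), a description across regions. When the gene of the nearest start was used instead of the gene that holds the region, the share was 55.6% (30 of 54), and with an absolute log2 fold of at least 1 it was 51.7% (15 of 29).

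An example of equal sign was Cd300lf, an inhibitory receptor of myeloid cells. Its region in exon 3 of 3 was lower in the authors' deposited table (chr11:115119452-115119851, log2 -0.77, FDR 0.00592). Its RNA stood at 218.7, 131.6 and 145.1 CPM in Nrp1 low against 53.9, 87.4 and 69.8 CPM in Nrp1 high, without overlap, and the difference was not called (log2 -1.23 ± 0.27 SE, edgeR adjusted p = 0.141). Trps1 also had equal signs, with RNA at 35.7 ± 21.9 CPM in Nrp1 low against 75.7 ± 23.2 CPM in Nrp1 high (SD, n = 3) beside its higher exon region.

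**Figure D5:**
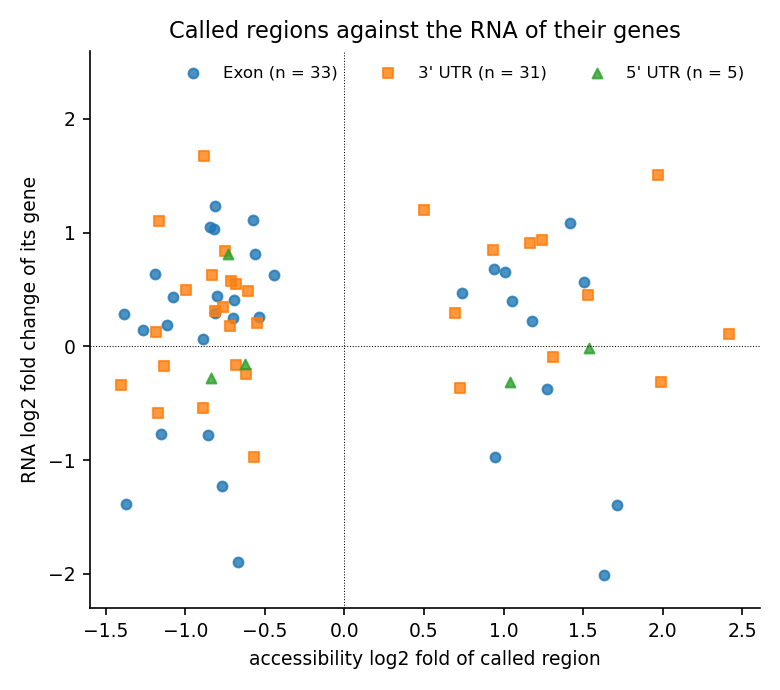
Log2 fold in accessibility of the called regions (horizontal axis) against the RNA log2 fold change of the gene that holds each (vertical axis), Nrp1 high against low, for 69 regions, 33 of them in exons, 31 in 3' UTRs and 5 in 5' UTRs. Points fall in all 4 quadrants, 29 in those of equal sign.

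The genes that hold these regions had a small positive median in RNA. The median RNA log2 fold change of the 907 tested genes was 0.21, with 60.1% above 0, against 0.01 and 50.6% over all genes tested. Genes that hold intron regions had a median of 0.17, and genes with promoter regions -0.01. Gene length also differed between these sets of genes. The median span was 50344.5 bases for the genes of exon, UTR and downstream regions and 69227 for those of intron regions. It was 23265 for those of promoter regions and 18927 over all genes tested with a span. The part of length in the shift was not tested. Without Nrp1 low replicate 1 the median was 0.09. Scaling by library totals alone raised the median of all genes to 0.20 and that of these genes to 0.39.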

How the data were processed

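The accessibility values are those of the authors' own comparison. Per the file headers, the authors deposited for each region its log2 fold with a p-value, FDR and gene annotation. The build is GRCm38, per the submitters' processing notes. No test was added. The submitters' processing notes list ChIPseeker, DiffBind, MACS2, DESeq2 and edgeR among other tools, without settings. The labels name a DESeq2 table, whereas the table used is named for edgeR. ATAC library names have 2 styles (replicates 1 and 2 against 3 to 5), and this split could not be checked. Adjusting the deposited p-values by Benjamini-Hochberg gave the deposited FDR to within 0.000268.

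RNA values are estimated counts per gene that the authors deposited (HISAT2 and StringTie, per the submitters' processing notes). They were whole numbers. Strand was not given, so overlapping genes are uncertain. After filterByExpr and TMM scaling, genes went through edgeR's robust quasi-likelihood F test (version 4.0.16, R 4.3.3) with group as the term, and those with an adjusted p-value under 0.05 were called. CPM uses TMM-scaled library sizes. The procedure was tested on simulated data.

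The gene of an exon region is that of the transcript named in its annotation. The annotation of a UTR names no transcript, so the overlapping RefSeq gene was used, among several the nearest-start or the only protein-coding gene, and otherwise the deposited nearest gene (41 of the 3' UTR regions). For 4 regions the gene stayed unassigned. The gene of a downstream region is that of the nearest start, which need not be the gene it follows. A gene's promoter region is the one of lowest FDR.

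Named regions were the 3 of largest positive and negative fold called in each class without predicted genes, up to 2 called per gene list, genes called in both assays (none), genes with 3 or more called regions (none) and Nrp1, Sema4a, Klf4, Nos2, Mapk14 and Mtor. Every other gene in the text was picked with its values already seen or to show what a list held. The regions and gene lists were chosen with earlier results of these data known. Alternatives were other thresholds, scalings (RLE, upper quartile, library totals, the last added after seeing the data), filters, DESeq2 1.42.0, limma-voom (limma 3.58.1), a replicate block and leaving out each RNA library.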

Additional observations from a re-analysis of the deposited data

How the results depend on the processing

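At FDR under 0.01 the regions called were 24 higher and 18 lower, at FDR under 0.1 they were 64 and 137, and at an absolute log2 fold of at least 1 the lower ones were 21. The share of the whole table at FDR under 0.1 is not given here, so nothing is read from the 64 and 137. Leaving out downstream regions or chromosome X changed neither count by more than 2. Genes higher in RNA numbered 0 in the main analysis, 6 by DESeq2, 1 without a filter, 1 at an adjusted p under 0.1, and 0 to 1 with each library left out. Those shares were 0.612% by DESeq2, 0.0851% without a filter and 0.11% at an adjusted p under 0.1. Of all genes they were 0.46%, 0.0156% and 0.0386%. Genes lower in RNA numbered 2, and 18 by DESeq2, 4 by limma-voom, 4 with at least 10 counts in every library, 7 at an adjusted p under 0.1, and 0 to 4 with each library left out (4 without Nrp1 low replicate 1). As shares of genes with an adjusted p, the lower calls were 1.84% by DESeq2, 0.441% by limma-voom and 0.519% with the 10-count filter, against 1.77%, 0.766% and 1.03% of all genes. At an adjusted p under 0.1 the share was 0.772%, against 1.05% of all genes. With each library left out, the lower calls over all genes ranged from 0 to 120, with 120 without Nrp1 low replicate 1. The share of called regions with RNA of the same sign ranged from 40.3 to 46.4% with each library left out and was 55.6% with the gene of the nearest start and 51.7% at an absolute log2 fold of at least 1. With the direction of the deposited fold reversed, these become 53.6 to 59.7%, 44.4% and 48.3%. The cause of these changes was not tested.

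With the replicate number as a block, genes called lower fell from 2 to 0 and genes called higher stayed at 0. No gene of the table was called. Of the 907 tested genes with a region, 38 were lower and 40 higher at an unadjusted p under 0.05 by edgeR. The share over all genes under the block is not given here, so nothing is read from these 2 counts. Same-numbered libraries correlated at -0.237, -0.24 and 0.021, so the numbers were not taken to pair the samples. The same-sign share under the block was 42.0%. ATAC depth is unknown, and no ATAC library could be left out.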
